A study of Mus musculus with 12 samples.

Results

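The genes described here are 42 genes of the Notch pathway, out of 43629 genes in the count table of an RNA sequencing study of mouse splenic B cells. They were taken as a named list of 4 receptors, 3 ligands, 7 genes for the cleavage of receptor or ligand, 5 genes for sugars on the receptor, 8 genes of the nuclear complex, 5 targets, 4 Deltex genes and 6 genes for ubiquitin and endocytosis. The list follows pathway roles and has no cut on a measured value, but it was drawn up with earlier results of these data known. All 42 genes were found in the table. The 12 libraries fall into 3 groups of 4. Marginal zone (MZ) B cells called deficient here, for the RNA-binding protein Zfp36l1, had the genotype Zfp36l1fl/flERT2cre/+ (replicates 1, 2, 7 and 8). Control MZ B cells had ERT2cre/ERT2cre (replicates 3, 4, 5 and 6), and follicular (FO) B cells had Zfp36l1fl/fl cre- (replicates 3, 4, 7 and 8). Values per replicate are given below in these orders. The strain is labelled Zfp36l1tm1.1Tnr in all groups, and the animals' age and any agent given to activate the cre are not given in the labels used here. Deficient and control cells thus differed both by the floxed gene and by carrying 1 or 2 copies of ERT2cre, which is not labelled as limited to B cells.

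Notch receptors are cut when they meet a Delta or Jagged ligand on a neighbouring cell. ADAM proteases and then γ-secretase release the intracellular domain, which joins Rbpj and a Mastermind protein in the nucleus and turns on targets such as the Hes genes. In the spleen, signals through Notch2 from Dll1 on stromal cells direct B cells to the MZ fate, whereas FO B cells depend on them less. Zfp36l1 binds AU-rich elements and destabilises the mRNAs that carry them. The comparison of deficient with control MZ cells bears on the floxed Zfp36l1 gene together with the difference in ERT2cre copies. The comparison with FO cells sets both MZ groups against the other main splenic subset.

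The libraries held 28938453 to 40664963 counts each. Zfp36l1 itself was at 22.0 to 37.5 counts per 1000000 (CPM) in deficient and 110 to 126 CPM in control MZ cells, and at 352 to 396 CPM in FO cells. The sum of 5 MZ markers was 5000 to 5610 CPM in deficient MZ, 5540 to 6030 CPM in control MZ and 1210 to 1610 CPM in FO libraries. The sum of 4 FO markers was 222 to 490 CPM in MZ and 1620 to 1850 CPM in FO libraries. Neutrophil markers summed to at most 0.168 CPM. Platelet and megakaryocyte markers summed to 7.32 to 15.2 CPM in deficient MZ, 10.6 to 18.2 CPM in control MZ and 3.25 to 3.99 CPM in FO libraries. Plasma cell markers summed to 186 to 231, 201 to 220 and 97.7 to 123 CPM in these groups. Endothelial and stromal markers summed to 267 to 468 CPM, nearly all from Pecam1, which B cells also express, while Cdh5 was at 0.815 to 1.77 CPM and Kdr and Tek stayed under 0.1 CPM. The deposited design text says that MZ libraries came from 5 ng of RNA with a SMARTer kit and paired reads, and FO libraries from a stranded TruSeq kit and single reads, so cell type, genotype, kit and read layout cannot be told apart between MZ and FO libraries. The labels do not say whether replicates were separate animals, so p-values reflect only how far these samples vary, possibly for technical reasons.

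Of the 42 genes, 31 were at 10 CPM or more in control MZ cells and 30 in FO cells, while 7 stayed under 2 CPM in every group. Counts over exon length (CPM per kb) allow levels of different genes to be set side by side. On that scale Dtx1, which encodes a ubiquitin ligase that regulates Notch and is itself induced by Notch in B cells, was the highest member in MZ cells, at 330 CPM per kb in control and 251 CPM per kb in deficient cells. It was followed in control MZ cells by the transcriptional repressor Hes1 at 76.3 CPM per kb and the γ-secretase subunit nicastrin (Ncstn) at 50.7 CPM per kb. In FO cells the highest member was the receptor Notch2, at 67.2 CPM per kb, with Dtx1 at 30.4 CPM per kb.

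**Figure D1:**
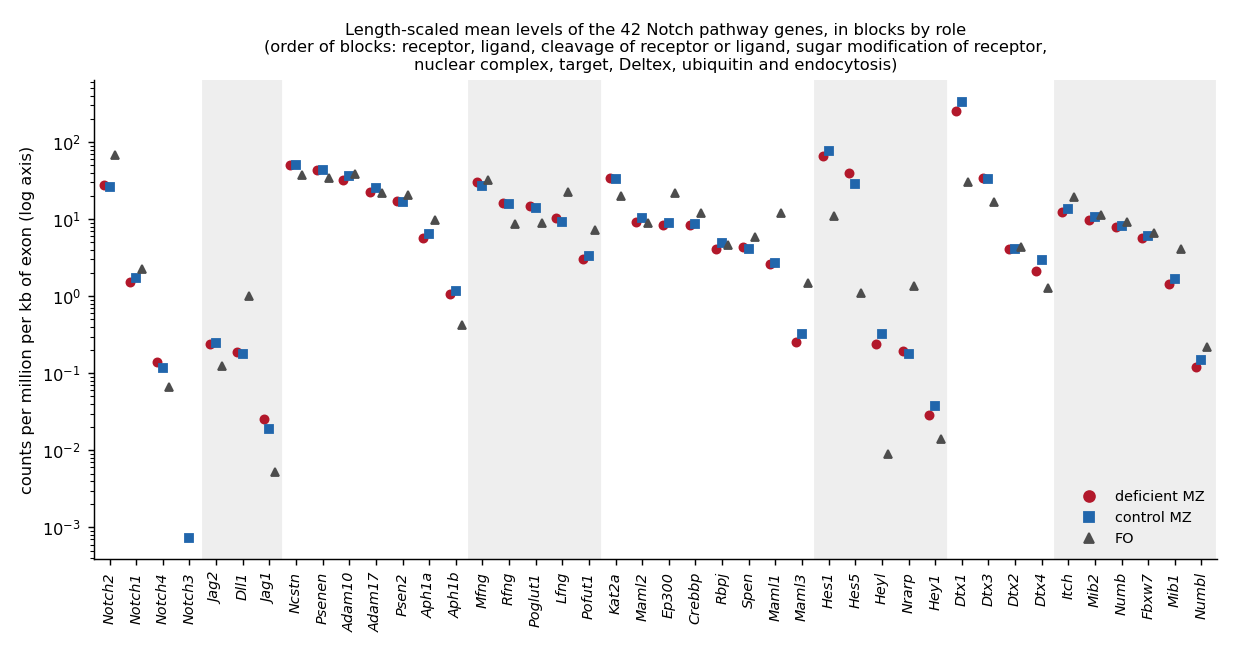
Mean level of each of the 42 genes in CPM per kb of exon (vertical log axis), in blocks by role, for deficient MZ (circles), control MZ (squares) and FO libraries (triangles), n = 4 each; a mean of 0 is not drawn. Dtx1 stands highest in MZ cells (330 CPM per kb in control MZ), Notch2 highest in FO cells (67.2 CPM per kb), and Notch3 is at the bottom with 1 count in all.

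In deficient against control MZ cells, 1 of 39 tested members rose and 2 fell by edgeR's quasi-likelihood test at an adjusted p under 0.05, and 36 were not called. Over all 13987 genes tested, 2.3% rose and 1.46% fell. The member that rose was Hes5, a repressor of the Hes family, and those that fell were Dtx1 and Dtx4, a second Deltex gene. The median log2 difference of the 39 members was −0.0811, beside −0.00371 over all genes tested. The 3 members that could not be tested for low counts were the receptor Notch3, the ligand Jag1 and the target Hey1.

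Hes5 was at 60.8, 45.5, 50.3 and 59.6 CPM in deficient MZ replicates, and at 34.2, 39, 43.4 and 39.5 CPM in control MZ replicates. All 4 deficient libraries lay above all 4 control libraries. The means were 54.1 ± 7.37 and 39 ± 3.76 CPM (SD, n = 4 and 4), a log2 difference of 0.46 (SE 0.10; edgeR, adjusted p = 0.0193). The call was lost without control replicate 3, 4 or 6 or deficient replicate 8, at adjusted p-values of 0.0532 to 0.0688 from the same test. Hes5 (ENSMUSG00000048001) lies on chromosome 4 at 154960923 to 154962371, plus strand, in GRCm38. Of its exon bases, 31.8% lie under exons of Gm20421 on the other strand, a gene that held 0.146 to 0.391 CPM in MZ libraries.

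Dtx1 was at 1293, 1323, 1319 and 1359 CPM in deficient and at 1604, 1607, 1788 and 1954 CPM in control MZ replicates. The deficient libraries lay close together and all below the lowest control library. With means of 1324 ± 27.1 and 1738 ± 168 CPM (SD, n = 4 and 4), the log2 difference was −0.40 (SE 0.08; edgeR, adjusted p = 0.01), and Dtx1 stayed called in all 17 alternatives run, at adjusted p-values up to 0.0323. Dtx1 (ENSMUSG00000029603) lies on the minus strand of chromosome 5 at 120680202 to 120711927, with no exon of the other strand over its own.

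For Dtx4 the values were 10.3, 13.2, 9.90 and 10.7 CPM in deficient and 13.7, 17.8, 14.0 and 16.7 CPM in control MZ replicates. The groups did not overlap, but the highest deficient library (13.2 CPM) was close to the lowest control library (13.7 CPM). The log2 difference was −0.51 (SE 0.13; edgeR, adjusted p = 0.0402), and the call was lost without deficient replicate 1, 7 or 8 or control replicate 4 or 6, at adjusted p-values of 0.0673 to 0.134. The other Deltex genes Dtx2 and Dtx3 differed by 0.01 (SE 0.10) and 0.06 (SE 0.10) on the log2 scale and were not called.

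**Figure D2:**
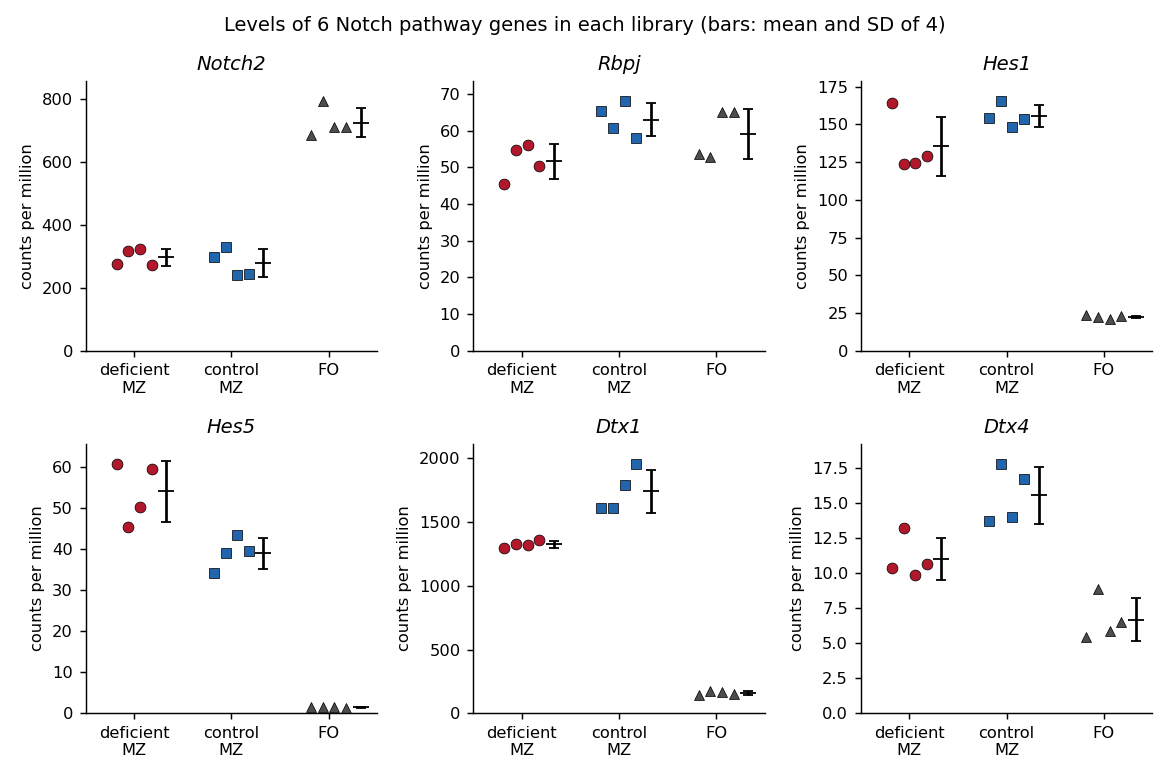
Level of 6 genes in every library, in CPM on axes that start at 0, with the mean and SD of each group of 4 beside the points. Hes5 is higher and Dtx1 and Dtx4 are lower in all 4 deficient than in all 4 control MZ libraries, while Notch2 overlaps between these groups and is highest in FO libraries.

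The promoters of Hes5 and Dtx1 are shown because these genes moved in opposite directions. They come from RefSeq (GRCm38.p6) and run from 250 bases before to 50 bases after the start of transcription. The core TGGGAA, the bases that the Rbpj protein is best known to bind, was searched on both strands and is in capitals, also as its reverse complement TTCCCA.

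Hes5 (chr4:154960673-154960972, plus strand): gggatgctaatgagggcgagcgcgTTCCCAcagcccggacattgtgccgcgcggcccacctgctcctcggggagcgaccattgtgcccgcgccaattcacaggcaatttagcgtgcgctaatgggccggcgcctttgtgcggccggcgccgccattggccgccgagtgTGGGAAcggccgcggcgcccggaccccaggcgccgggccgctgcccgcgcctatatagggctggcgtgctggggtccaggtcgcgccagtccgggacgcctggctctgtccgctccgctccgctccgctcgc
Dtx1 (chr5:120711620-120711919, minus strand): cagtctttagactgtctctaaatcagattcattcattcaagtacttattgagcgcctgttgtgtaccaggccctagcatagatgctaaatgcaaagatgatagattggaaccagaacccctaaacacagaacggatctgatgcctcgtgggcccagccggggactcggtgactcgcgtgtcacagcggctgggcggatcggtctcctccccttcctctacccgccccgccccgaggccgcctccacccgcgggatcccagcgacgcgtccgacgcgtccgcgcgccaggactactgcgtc

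Hes5 holds the core 2 times, 226 and 82 bases before the start, and the Dtx1 window holds none. Windows were found for 34 of the 42 members, with 44 windows in all. Of those 44, 13 (29.5%) hold the core at least 1 time, beside 25.6% of all 32851 windows in the table. By gene, 12 of the 34 members (35.3%) hold it, and a share by gene over all genes was not computed. Of 8 genes of the nuclear complex with a window 5 hold it, and of 4 receptors and 3 ligands none. Hes1, Hey1, Heyl, Dtx3 and Dtx4 had no window and were not searched. A match is a run of letters, and its use in these cells was not measured.

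Among the receptors, none was called between deficient and control MZ cells. Notch2, the receptor on which MZ cells depend, was at 277, 316, 322 and 272 CPM in deficient and at 299, 331, 240 and 243 CPM in control replicates, and the groups overlapped. The log2 difference was 0.08 (SE 0.11, 95% interval −0.12 to 0.29; edgeR, adjusted p = 0.72). Notch1 was at 22.3, 24.9, 19.0 and 21.5 CPM in deficient and at 25.9, 25.7, 20 and 25.3 CPM in control replicates, a log2 difference of −0.15 (SE 0.11). Notch4 stayed at 0.502 to 1.40 CPM across all MZ libraries. Notch3 had 1 count in 1 control library and none elsewhere, and a count of 0 over the 4 deficient libraries allows up to 0.0221 CPM.

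Rbpj, the DNA-binding factor of the complex, was at 45.3, 54.9, 56.0 and 50.4 CPM in deficient and at 65.5, 60.7, 68.1 and 58.0 CPM in control MZ replicates. All deficient libraries lay below all control libraries, with a log2 difference of −0.30 (SE 0.08), but the gene missed the threshold (edgeR, adjusted p = 0.0603). It passed with no filter on low counts (adjusted p = 0.048) and by DESeq2's test (adjusted p = 0.0193), and over the alternatives its adjusted p ran from 0.0193 to 0.153. In the authors' deposited table Rbpj has a log2 fold change of −0.27 and an adjusted p of 0.0197, Hes5 has 0.40, Dtx1 has −0.37 and Dtx4 has −0.41. The other 7 members of the nuclear complex were not called. These include the coactivators Maml1 to Maml3, the acetyltransferases Kat2a, Ep300 and Crebbp, and the corepressor Spen, and their log2 differences ran from −0.34 (Maml3) to 0.09 (Spen).

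Hes1 was not called (log2 −0.21, SE 0.09; edgeR, adjusted p = 0.213). Its values were 164, 124, 124 and 129 CPM in deficient and 154, 166, 148 and 154 CPM in control MZ replicates, so that deficient replicate 1 stood above the others of its group. Without that library the log2 difference was −0.31 (adjusted p = 0.0149, same test). The 2 Hes genes thus had log2 differences of opposite sign, and the log2 ratio of Hes5 to Hes1, which needs no scaling between libraries, was −1.44 to −1.12 in deficient and −2.17 to −1.78 in control MZ libraries. The ratio of Hes5 to Dtx1 was −4.86 to −4.41 and −5.63 to −5.36 on the same scale. Neither ratio overlapped between the groups, and both were formed after the values were seen, so no test is given.

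Targets with low counts were less certain. Heyl, a repressor related to the Hes genes, was at 0.761, 1.15, 1.35 and 1.60 CPM in deficient and at 1.93, 1.42, 0.621 and 2.73 CPM in control replicates, and the groups overlapped (log2 −0.47, SE 0.38). Nrarp, a feedback inhibitor of the complex, was at 0.209 to 0.705 CPM in deficient and 0.198 to 0.830 CPM in control libraries. Hey1 had 12 counts in all deficient and 20 in all control libraries.

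The Fringe genes encode enzymes that extend O-fucose on Notch and shift its preference for ligands. Mfng was at 87.8, 84.0, 81.7 and 89.8 CPM in deficient and at 77.6, 75.4, 79.9 and 73.9 CPM in control replicates. The groups did not overlap, but the gene was not called (log2 0.15, SE 0.06; edgeR, adjusted p = 0.205). In all, 5 of 39 members did not overlap between the groups (Hes5, Dtx1, Dtx4, Rbpj and Mfng), beside 11.9% of all genes tested. Lfng and Rfng, and the O-fucosyl and O-glucosyl transferases Pofut1 and Poglut1, were not called, with log2 differences of −0.18 to 0.14.

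None of the 7 cleavage genes, 2 tested ligands or 6 genes for ubiquitin and endocytosis was called between deficient and control MZ cells. Adam10, which makes the first cut in Notch2, was at 134, 179, 176 and 151 CPM in deficient and at 181, 164, 204 and 174 CPM in control replicates (log2 −0.19, SE 0.09; edgeR, adjusted p = 0.301). For the 7 cleavage genes the log2 differences ran from −0.19 (Adam10) to 0.03 (Psen2). All 6 genes for ubiquitin and endocytosis had values below 0, from −0.28 (Numbl) to −0.08 (Numb), but the libraries of the groups overlapped in each. The ligands Dll1 and Jag2 were under 3 CPM in every MZ library.

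**Figure D3:**
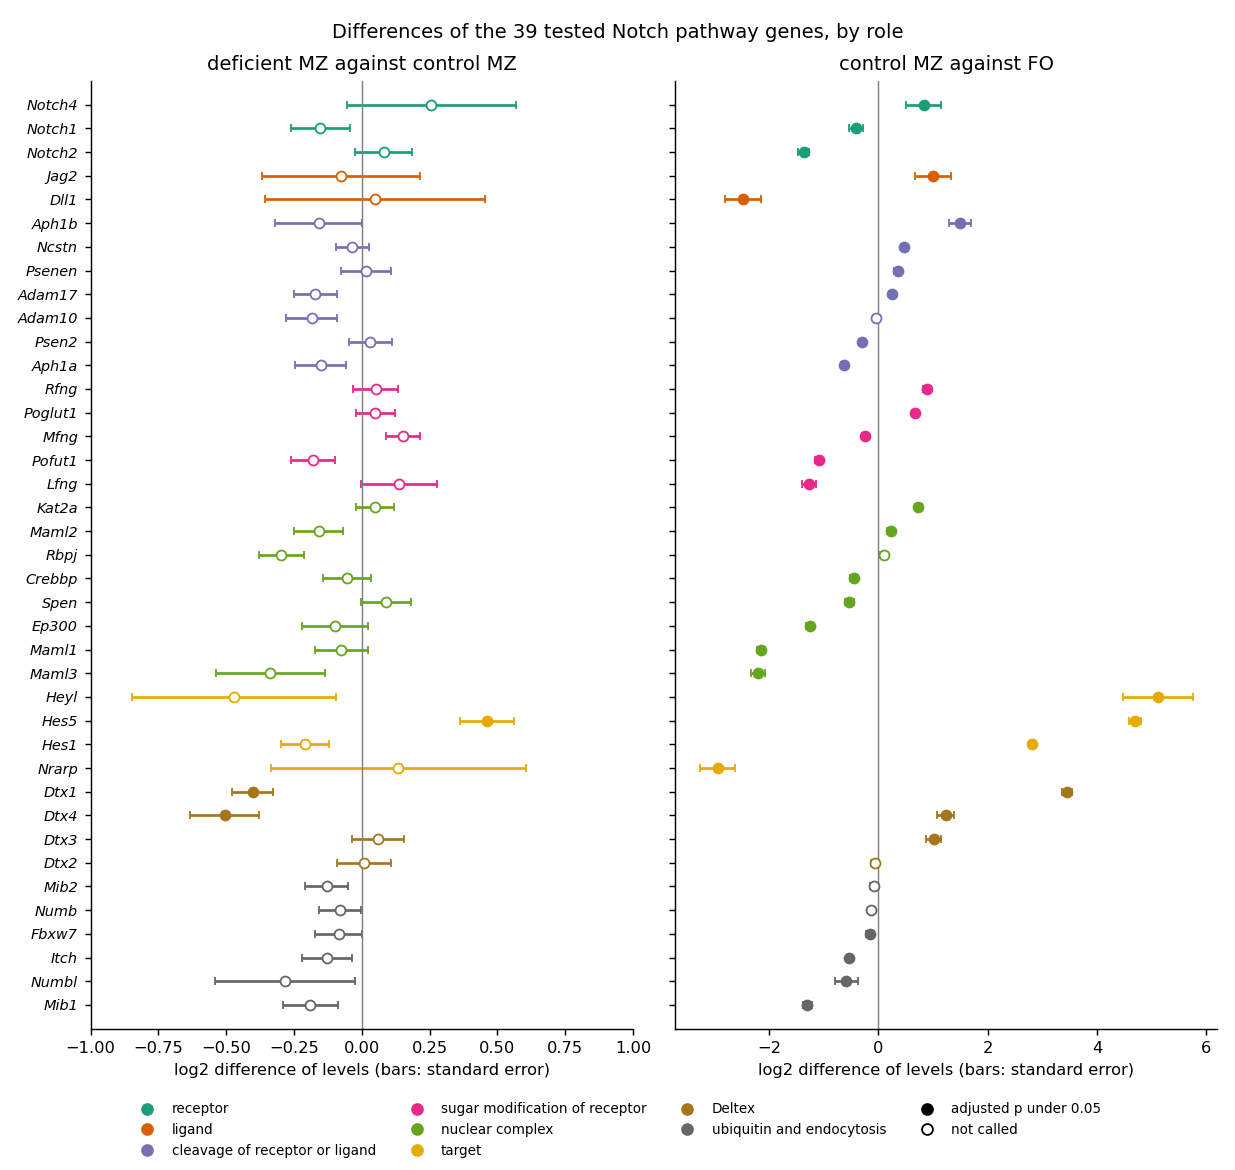
Log2 difference with its standard error for each of the 39 tested genes, coloured by role, in deficient against control MZ (left) and control MZ against FO (right, wider axis); filled points passed an adjusted p of 0.05. On the left only Hes5 (0.46), Dtx1 (−0.40) and Dtx4 (−0.51) are filled, and on the right 34 of 39 are, from −2.94 (Nrarp) to 5.11 (Heyl).

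Marker genes of MZ and FO cells moved between the MZ groups as well. Of the 5 MZ markers, Cd1d1 rose (mean 951 CPM in deficient and 642 CPM in control MZ cells). Myof fell (234 and 295 CPM), and 3 were not called. Of the 4 FO markers, 3 rose in deficient MZ cells (Klf2, Cxcr4 and Ccr7) and Fcer2a, which encodes CD23, was not called (log2 −0.21, SE 0.32). The sum of the FO markers was 369 to 490 CPM in deficient and 222 to 313 CPM in control MZ libraries, a difference mostly from Klf2. Mean levels in deficient and control MZ cells were 148 and 40.4 CPM for Klf2 and 142 and 109 CPM for Ccr7. They were 13.9 and 5.60 CPM for Cxcr4 and 112 and 129 CPM for Fcer2a. In FO cells Dtx1 and Dtx4 were lower than in control MZ cells, and Hes5 was lower too. The part of FO marker changes in the results for Dtx1, Dtx4 and Hes5 was not tested, and in bulk samples fewer cells of a type cannot be told apart from less RNA per cell. Markers of other cells moved between the MZ groups too. Of 3 tested T cell markers, Cd8a (0.641 to 3.16 CPM in deficient, 0.334 to 0.593 CPM in control libraries; log2 2.04, SE 0.42; edgeR, adjusted p = 0.0147) and Tcf7 (log2 2.46, SE 0.53; adjusted p = 0.0185, same test) rose. The sum of all 7 was 39.5 to 45.7 CPM in deficient and 37.0 to 48.3 CPM in control libraries, mostly from Lck, and Cd3e was at 0 to 0.0279 CPM. Of 8 macrophage and monocyte markers, Adgre1 rose (log2 1.37, SE 0.28; adjusted p = 0.0136, same test), with sums of 16.9 to 23.4 and 12 to 19 CPM. Erythroid markers summed to 6.63 to 23.8 CPM in deficient and 0.84 to 10 CPM in control libraries, and 1 of 4 tested, Hbb-bt, rose (log2 1.44, SE 0.37; adjusted p = 0.0464, same test). The part of these cells in the members' values was not tested.

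Between control MZ and FO cells, 16 of 39 members were higher in MZ cells, 18 were lower and 5 were not called. Over all 13843 genes tested, 42.6% were higher and 38.7% lower, so the share of members called (87.2%) was near the 81.3% of all genes. The members' median log2 difference was −0.0778, beside 0.0549 over all genes. The differences furthest from 0 were those of the targets Heyl and Hes5 and of Dtx1, all higher in MZ cells, followed by the target Nrarp, which was lower, and the target Hes1, which was higher. In 31 members the libraries of the groups did not overlap, beside 76.9% of all genes tested. Markers of other cells differed here too. All 4 platelet markers were higher in control MZ cells, as were 5 of 7 tested macrophage and monocyte markers, with 1 lower. Of 4 plasma cell markers 2 were higher and 2 lower, and of 3 tested T cell markers 1 was higher and 1 lower. None of 3 tested erythroid markers was called. The part of these cells in the members' differences was not tested.

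Hes5 was at 1.51, 1.64, 1.49 and 1.43 CPM in FO replicates against 34.2 to 43.4 CPM in control MZ replicates, a 25.9-fold difference (log2 4.69, SE 0.10; edgeR, adjusted p = 3.04e-13). Hes1 was at 23.4, 22.1, 21.3 and 22.8 CPM in FO cells, 6.99-fold lower than in control MZ cells (log2 2.81, SE 0.06). For Dtx1 the FO values were 142, 175, 170 and 153 CPM, and the gene was 10.9-fold higher in control MZ cells (log2 3.45, SE 0.09). Heyl had 6 counts in the 4 FO libraries together and 264 in the 4 control MZ libraries (log2 5.11, SE 0.64; edgeR, adjusted p = 7.54e-06). No FO library reached the level of any MZ library for these 4 genes. Counted from the highest log2 difference of all 13843 genes tested, Heyl ranked 552, Hes5 651, Dtx1 985 and Hes1 1224.

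Dtx3 and Dtx4 were also higher in control MZ cells, by 1.01 (SE 0.14) and 1.23 (SE 0.15) on the log2 scale. Dtx4 was at 5.46, 8.89, 5.89 and 6.49 CPM and Dtx3 at 33.0, 56.3, 40.7 and 39.6 CPM in FO replicates, with replicate 4 the highest for both. Dtx2, at 29.3 to 31.8 CPM in FO and 25.6 to 31.6 CPM in control MZ cells, was not called (log2 −0.07, SE 0.07), but was higher in control MZ cells with scaling by library totals alone (0.25).

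Nrarp went the other way from the Hes genes. It was at 3.67, 3.73, 3.19 and 3.46 CPM in FO and at 0.198, 0.830, 0.454 and 0.331 CPM in control MZ replicates (log2 −2.94, SE 0.33; edgeR, adjusted p = 1.89e-06). Of its exon bases, 79.4% lie under exons of Gm38287 on the other strand, a gene at 0 to 0.0628 CPM in all libraries. In this comparison the median log2 difference was −0.63 over genes with more than 50% of exon bases so covered, beside 0.09 over genes with none. Without strand, reads from the bases shared by Nrarp and its antisense partner cannot be told apart. Depending on the counting mode, such reads may also be left uncounted, however low the partner's own level. Neither the mode nor the use of strand is stated, and their part in the difference of Nrarp was not tested.

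The receptors were ordered Notch2, Notch1, Notch4 and Notch3 by CPM per kb in control MZ, deficient MZ and FO cells alike, with Notch3 at 0 in the last 2 groups. Notch2 was at 685, 793, 709 and 712 CPM in FO replicates, all above the 240 to 331 CPM of control MZ replicates (log2 −1.37, SE 0.10; edgeR, adjusted p = 1.27e-07). Notch1 was at 26.8, 40.8, 29.4 and 32.5 CPM in FO replicates, of which the lowest was just above the highest control MZ library (25.9 CPM), with a log2 difference of −0.41 (SE 0.13; adjusted p = 0.0127, same test). Notch4 was at 0.455 to 0.618 CPM in FO and 0.502 to 1.22 CPM in control MZ libraries (log2 0.83, SE 0.32), and its call was lost without control replicate 3 or 6 or FO replicate 3, 4 or 7 (edgeR adjusted p of 0.0502 to 0.0854).

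Dll1, the ligand that stromal cells of the spleen present to MZ cells, was at 4.39, 4.84, 3.52 and 4.16 CPM in FO and at 1.16, 0.937, 0.645 and 0.255 CPM in control MZ replicates (log2 −2.48, SE 0.33; edgeR, adjusted p = 1.21e-05). Its antisense neighbour A930024N18Rik, which overlaps 20.6% of its exon bases, moved with it, from 0 to 0.0239 CPM in control MZ libraries to 0.443 to 0.759 CPM in FO libraries, and its part in the value of Dll1 was not tested. Jag2 was higher in control MZ cells (log2 1.0, SE 0.32) at 1.03 to 2.6 CPM against 0.547 to 1.15 CPM in FO cells, and Jag1 had 17 counts in all control MZ and 4 in all FO libraries.

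Within the Fringe family the order of levels per kb changed between the subsets. Control MZ cells had 27.0 CPM per kb of Mfng, 15.7 of Rfng and 9.28 of Lfng, whereas FO cells had 32.5 of Mfng, 22.6 of Lfng and 8.55 of Rfng. Lfng was at 50, 59.7, 56.3 and 60.3 CPM in FO and at 28.0, 25.5, 20.5 and 18.9 CPM in control MZ replicates (log2 −1.27, SE 0.12; edgeR, adjusted p = 9.46e-07). Rfng was at 21.3, 20.1, 22.9 and 20.8 CPM in FO and at 34.8, 40.4, 39.8 and 40.9 CPM in control MZ replicates (log2 0.88, SE 0.07). The log2 ratio of the CPM of Lfng to that of Rfng was 1.23 to 1.57 in FO libraries and −1.11 to −0.31 in control MZ libraries. Mfng was slightly lower in control MZ cells (log2 −0.25, SE 0.05), a direction that turned with scaling by library totals alone (0.07). Poglut1 was higher by 0.67 (SE 0.06) and Pofut1 lower (log2 −1.1, SE 0.07) in control MZ cells.

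Among the cleavage genes, Aph1b (log2 1.49, SE 0.20), Ncstn (0.46, SE 0.04), Psenen (0.35, SE 0.06) and Adam17 (0.24, SE 0.05) were higher in control MZ cells. Aph1a (log2 −0.62, SE 0.07) was lower. These are γ-secretase subunits other than Adam17, a protease of the ADAM family, and the alternative scaffold subunits Aph1a and Aph1b had opposite signs. Psen2, a catalytic subunit, was lower (log2 −0.30, SE 0.05) but changed sign with scaling by library totals alone (0.02). Adam10 was at 188, 175, 195 and 191 CPM in FO replicates and was not called (log2 −0.04, SE 0.06, 95% interval −0.16 to 0.08), but was higher in control MZ cells with scaling by library totals alone (0.28).

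In the nuclear complex, Rbpj was not called between control MZ and FO cells (log2 0.10, SE 0.08; edgeR, adjusted p = 0.24), at 53.6, 52.8, 65.1 and 65.1 CPM in FO replicates. The Mastermind coactivators went in both directions: Maml1 (log2 −2.16, SE 0.07) and Maml3 (−2.20, SE 0.12) were lower in MZ cells, and Maml2 (0.22, SE 0.07) was higher, a call lost without FO replicate 4 (adjusted p = 0.052). In mean CPM per kb, Maml2 was the highest of the 3 in control MZ cells at 10.2 and Maml1 in FO cells at 12.2. Ep300 (log2 −1.25, SE 0.08), Spen (−0.53, SE 0.08) and Crebbp (−0.46, SE 0.07) were lower and Kat2a (0.73, SE 0.07) was higher in control MZ cells.

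No gene for ubiquitin and endocytosis was higher in control MZ cells with TMM scaling, whereas with scaling by library totals alone Fbxw7, Numb and Mib2 were (log2 0.17, 0.19 and 0.24). Mib1 (log2 −1.30, SE 0.08), which activates ligands by ubiquitination, the ligase Itch (−0.53, SE 0.05), the Numb relative Numbl (−0.59, SE 0.21) and Fbxw7 (−0.15, SE 0.07), which marks the Notch intracellular domain for decay, were lower. Fbxw7 lost its call in 11 alternatives, and Numbl lost its call without FO replicate 7 (edgeR adjusted p = 0.0553). Numb (log2 −0.13, SE 0.07) and Mib2 (−0.08, SE 0.08) were not called with TMM scaling.

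Scaling and exon length moved with these values. With scaling by library totals alone, the median of all genes shifted by 0.32 on the log2 scale, and 22 members were then higher and 12 lower in control MZ cells in place of 16 and 18. Notch1 and Crebbp then lost their calls (edgeR adjusted p of 0.561 and 0.114), as did Numbl, and Rbpj was called higher (log2 0.42, adjusted p = 0.000415). Exon length also tracked the difference: the median log2 difference of all genes was 0.33 for exons under 2 kb in sum, 0.22 for 2 to under 5 kb, −0.17 for 5 to under 10 kb and −0.51 for 10 kb or more. Of the 8 members in the longest class, 7 were lower, beside 63.1% of all genes tested in that class. The 7 included Notch2 at −1.37 and Maml3 at −2.20, and Rbpj, at 0.10, was not called. Hes5, at 4.69, and Psenen, at 0.35, make up the shortest class. Heyl, at 5.11, and Dtx1, at 3.45, lay above 0 in the class of 5 to under 10 kb, whose median was below 0. In deficient against control MZ cells these medians were 0.08, 0.01, −0.05 and −0.05. The part of length in the members' values was not tested.

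**Figure D4:**
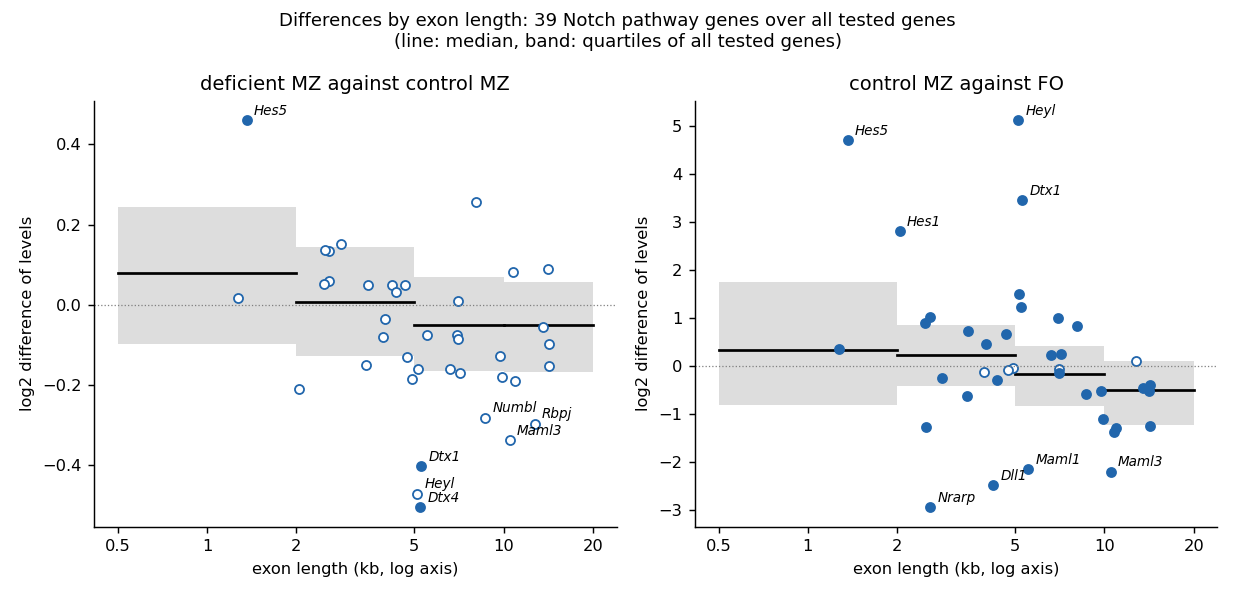
Log2 difference of the 39 tested genes (points, filled where called) against the summed exon length in kb (log axis), over the median (line) and quartiles (grey band) of all tested genes in 4 length classes; the outer classes are drawn to the ends of the axis. Left, Hes5, Dtx1 and Dtx4 lie outside the band of their class, as do members that were not called, Rbpj and Maml3 among them. Right, Notch2 and Maml3 are among the genes below the band of the longest class.

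Deficient MZ cells were also set against FO cells, which share the FO libraries with the comparison above. Of 39 members, 14 were higher, 19 lower and 6 not called, beside 42.8% higher, 38.3% lower and 81.1% called in either direction over all 13895 genes tested. With scaling by library totals alone these became 18 and 13. The log2 difference was 5.18 for Hes5 (SE 0.13; 4.69 in control MZ against FO), 3.08 for Dtx1 (SE 0.08; 3.45), 0.75 for Dtx4 (SE 0.16; 1.23), 2.62 for Hes1 (SE 0.09; 2.81) and −1.26 for Notch2 (SE 0.08; −1.37). Heyl differed by 4.66 (SE 0.50), Nrarp by −2.79 (SE 0.29) and Dll1 by −2.41 (SE 0.22).

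Of 46 other genes of the pathway in the table, 34 were tested. Between deficient and control MZ cells 2 rose and 1 fell (5.88% and 2.94%, beside 2.3% and 1.46% of all genes). Tspan15, a tetraspanin that binds Adam10, rose from 65.2 to 87.8 CPM in control libraries to 98.9 to 170 CPM in deficient libraries (log2 0.91, SE 0.14; edgeR, adjusted p = 0.00435). The histone deacetylase Hdac1 rose (log2 0.31, SE 0.08; adjusted p = 0.0465, same test), and Eogt, which adds N-acetylglucosamine to Notch, fell from 21.1 to 25.4 CPM to 13.5 to 18.5 CPM (log2 −0.61, SE 0.11; adjusted p = 0.0092, same test). Between control MZ and FO cells 12 were higher and 16 lower, and the 82.4% called was near the 81.3% of all genes. The 4 higher genes with the smallest p were Tspan15 (log2 9.36, SE 0.21), the ubiquitin ligase Nedd4 (2.99, SE 0.11), the xylosyltransferase Xxylt1 (1.41, SE 0.07) and Hes6 (1.25, SE 0.07), and the 4 lower genes were the corepressors Cir1 (−1.58, SE 0.06) and Tle3 (−0.65, SE 0.05), the acetyltransferase Kat2b (−1.28, SE 0.08) and the ubiquitin ligase Neurl3 (−2.17, SE 0.13). Tspan15 held 0.0316 to 0.213 CPM in FO libraries. Between deficient MZ and FO cells 88.2% were called, beside 81.1% of all genes. Of these 13 were higher, led by Nedd4 (log2 3.05), Tspan15 (10.29), Xxylt1 (1.44) and Hes6 (1.31), and 17 were lower, led by Neurl3 (−2.27), Cir1 (−1.51), Kat2b (−1.25) and the xylosyltransferase Gxylt1 (−1.3).

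A list of 10 genes reported to respond to Notch in lymphocytes was counted beside the direct targets. It was drawn up with earlier results of these data known, so its counts are a description and not a test. Of the 6 tested between deficient and control MZ cells, 4 rose and none fell, beside 2.3% and 1.46% of all genes tested, and they are named here after their values were seen. Asb2 rose by 0.71 (SE 0.10), Myc by 0.70 (SE 0.11) and Ccnd3 by 0.64 (SE 0.08) on the log2 scale (edgeR, adjusted p = 0.0016, 0.00311 and 0.000744). Tcf7, at 0.18 CPM in control cells and also a T cell gene, rose by 2.46 (SE 0.53), and Cr2, which encodes CD21, was not called (log2 −0.26, SE 0.08; adjusted p = 0.0855, same test). Asb2 was at 210 to 309 CPM in deficient, 141 to 172 CPM in control MZ and 0.722 to 1.80 CPM in FO libraries.

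Because Zfp36l1 acts on AU-rich elements, the heptamer TATTTAT was searched on the sense strand of the longest annotated 3′ untranslated region of each member. It is present in 13 of 42 members, beside 27.6% of the 20689 genes with such a region. None of Hes5, Dtx1 and Dtx4 holds it. Notch1 holds 4 matches, Jag1 5, and Maml2, Nrarp, Aph1b, Fbxw7 and Crebbp 2 each. For Notch1, whose deficient and control levels overlapped, 2 of the sites are shown with the heptamer in capitals. The letters come from GENCODE M21 transcripts and the positions are in GRCm38. The second site is part of the longer match TTATTTATT.

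Notch1 site at chr2:26459317-26459343, minus strand: actgccttttTATTTATatgtattgtt
Notch1 site at chr2:26459163-26459189, minus strand: aaatgctgttTATTTATtgattgcttc

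Over all genes tested, those with the heptamer had a median log2 difference of −0.02 between deficient and control MZ cells, and those without it −0.01. The share called higher was 3.05% with and 2.31% without it, and the share called lower was 1.85% with and 1.7% without it.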

How the data were processed

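Raw counts per Ensembl gene were deposited by the authors as whole numbers, 1 column for each of 12 libraries. The build was GRCm38 and the tools were TopHat2 2.0.12 after Trim Galore, then HTSeq, with DESeq2 1.10.1 for testing, per the submitters' processing notes. No source used here states the annotation release, the counting mode or the use of strand, and the labels' extraction protocol names the SMARTer kit for all samples. The authors' deposited log2 fold changes and the authors' deposited adjusted p-values were copied for the members only. The authors' deposited normalised signal was used only to find its scaling factors.

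Of the gene IDs, 42548 of 43629 matched GENCODE M21, and 19338 genes had no count. Counts were tested in edgeR 4.0.16 (quasi-likelihood, robust; R 4.3.3) with TMM scaling, the default filter by group and Benjamini-Hochberg adjustment over all genes tested, each comparison on its own 8 libraries. Levels are CPM with TMM factors over the 12 libraries; the limit given for a count of 0 (3 counts) covers counting error only, and 95% intervals of differences are 1.96 SE wide on each side. The procedure was run on simulated counts in which few genes differed, unlike MZ against FO cells. That run does not bear on the scaling between MZ and FO libraries. No libraries were identical (0 pairs), and chi-square per gene between replicates was 5.78 to 48.6, above sampling noise.

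The members and lists were chosen with earlier results of these data known. Values per replicate are given for called members, receptors, Rbpj, targets, Deltex and Fringe genes, Adam10 and ligands; of other pathway genes, up to 4 per direction with the smallest p were named. Alternatives were other scalings, filters, DESeq2 1.42.0, 1 fit of all libraries, the replicate number as a block and leaving out each replicate; 2 further ones (spread not robust, newer quasi-likelihood method) were added after seeing the data. Promoter windows were not found for 8 members. A single one of the marker genes chosen for FO cells is not reported here.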

Additional observations from a re-analysis of the deposited data

Results flagged for a closer look

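In 8 of 116 groups of 4 libraries examined, 1 library stood apart from the other 3 by Dixon's criterion, which chance meets in about 1 of 20 groups. Hes1 was at 164 CPM in deficient MZ replicate 1 and at 124 to 129 CPM in the others of its group, and the same library held 84.9 CPM of Psen2 against 69.8 to 70.5 CPM. Deficient MZ replicate 7 was low for Aph1a (17.1 CPM against 20.7 to 21.3) and Pofut1 (28.2 CPM against 30.1 to 30.4), and deficient MZ replicate 2 was high for Numbl (1.42 CPM against 0.907 to 0.952). Control MZ replicate 5 was low for Notch1 (20 CPM against 25.3 to 25.9). Among FO libraries, replicate 4 was high for Aph1a (36.6 CPM against 33.1 to 33.5) and replicate 3 for Aph1b (2.98 CPM against 1.83 to 1.94).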

How the results depend on the processing

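In deficient against control MZ cells, 1 member rose and 2 fell; leaving out 1 library gave 0 to 1 and 1 to 2, and 1 fit of all 12 libraries left 1 lower member, since Dtx4 missed the threshold (adjusted p = 0.0547). The cause was not tested. Over all genes, 526 were called, 1057 by DESeq2's test, 790 with all 12 libraries and 257 to 506 without 1 library, the fewest without control replicate 4. Of 661 gene values under alternatives, 630 kept direction and side of the threshold, 10 lost and 3 gained a call, and 18 turned, all of them in genes not called. Against FO cells, 664 of 700 (control) and 655 of 700 (deficient) kept both.

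Leaving out 1 library gave 14 to 16 higher and 16 to 19 lower members in control MZ against FO, and 14 to 15 and 17 to 20 in deficient MZ against FO. Scaling by library totals alone gave −0.018 for Dtx2 and −0.01 for Psenen in deficient against control MZ cells. In control MZ against FO it gave 0.28 for Adam10, 0.25 for Dtx2, 0.022 for Psen2, 0.067 for Mfng, 0.19 for Numb, 0.24 for Mib2 and 0.17 for Fbxw7. In deficient MZ against FO it gave 0.23 for Dtx2, 0.026 for Psen2, 0.20 for Mfng, 0.081 for Numb, 0.091 for Mib2 0.058 for Fbxw7, 0.103 for Rbpj and 0.075 for Adam10. Without 1 library, deficient against control values ran from −0.08 to 0.069 for Dtx2, −0.022 to 0.125 for Dtx3, −0.113 to 0.598 for Nrarp, −0.236 to 0.344 for Dll1, −0.262 to 0.19 for Jag2, −0.038 to 0.07 for Psen2, −0.075 to 0.07 for Psenen and −0.18 to 0.023 for Ep300. Those of control MZ against FO ran from −0.096 to 0.006 for Adam10, and those of deficient MZ against FO from −0.14 to 0.012 for Dtx2.

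MZ and FO libraries share some replicate numbers. Deviations from the group means correlated at −0.05, −0.12, 0.13 and 0.03 between same-numbered libraries. Between libraries with different numbers the correlations ran from −0.08 to 0.133. The labels do not say what the numbers mark, and these values cannot decide it. With the replicate block, 15 members were higher and 15 lower in control MZ against FO, and 14 and 19 in deficient MZ against FO. Only numbers 3 and 4 (control MZ) or 7 and 8 (deficient MZ) occur on both sides. The differences in these fits thus rest on the libraries with those numbers alone. Members under 2 CPM are limited by depth: differences in Notch3, Hey1 and Jag1 were not detectable.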
